A study of Mus musculus with 20 samples.

Results

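The genes described here encode receptors for glutamate and GABA, the main excitatory and inhibitory transmitters of the brain. There were 36 of them, 23 for glutamate and 13 for GABA, chosen as named members of the AMPA, kainate, NMDA, delta-type, metabotropic glutamate, GABA-A and GABA-B receptor families. Each was described by the CpGs inside the annotated gene (mm10) and 1 kb to either side. Of the 36 genes, 35 held at least 3 measured CpGs, and Gabra6, a GABA-A α subunit gene, held none. Together they held 3479 of the 1132579 CpGs measured at both ages on the autosomes and the sex chromosomes. The median number of CpGs per gene was 68.5. CpGs within 1 kb of either annotated end of the gene (1219) were kept apart from CpGs deeper in the gene body (2268). The sum is 8 larger than the total because Gabra4 and Gabrb1, which start next to each other on opposite strands of chromosome 5, share 8 CpGs near their ends.

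DNA methylation was measured by reduced representation bisulfite sequencing (RRBS), in which restriction fragments rich in CpGs are sequenced, in 20 libraries of mouse brain homogenate enriched for microglia. HEM mice overexpressed full-length wild-type human α-synuclein from a transgene on the X chromosome driven by the murine Thy-1 promoter, a promoter best known for driving transgenes in neurons, and WT mice were their controls. The background strain was B6D2F1/J for both genotypes, although 1 of the HEM libraries at 13 months carries no strain label. There were 4 WT and 4 HEM libraries at 3 months of age and 4 WT and 8 HEM libraries at 13 months, and the series' own text counts 3 WT mice at 3 months where 4 libraries are labelled so. The deposited values are the percent methylation of each CpG without read counts, so the depth behind each percentage is unknown, and no interval for single values is given. A homogenate mixes cell types, so a level is an average over the cells present.

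AMPA, kainate and NMDA receptors are ion channels built from subunits of the Gria, Grik and Grin families, and the metabotropic receptors of the Grm family act through G proteins. GABA-A receptors are chloride channels assembled from α, β, γ, δ and ρ subunits, and the GABA-B receptor is a G protein-coupled pair of Gabbr1 and Gabbr2. These receptors are best known from neurons, and microglia have been described to carry some of them. In mammals the CpG-rich start of a gene is usually free of methylation and the gene body is usually methylated.

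The promoter sequences below show the CpG content of the starts at which these genes were read. RefSeq windows of 250 bases upstream of a start (GRCm38.p6, the assembly of mm10) were found for 27 of the 36 genes, 33 windows in all. The site CCGG, a common cutting site of the method and palindromic on both strands, lay in 63.6% of these windows and in 47.1% of all 32851 windows of the table. The receptor windows held a median of 9 CG pairs, against 6 over all windows. Of the 33 windows, 16 held a measured position, and the Grik4 window, with 36 CG pairs and 7 CCGG sites, held none. The following 6 lie outside the annotated gene and are shown 5′ to 3′ on the gene's strand, with each CG pair measured on at least 1 strand in capitals. The first 5 are CpG-rich and were almost unmethylated, and the Gabrg1 window holds 1 CG pair, which was partly methylated.
Gabbr2: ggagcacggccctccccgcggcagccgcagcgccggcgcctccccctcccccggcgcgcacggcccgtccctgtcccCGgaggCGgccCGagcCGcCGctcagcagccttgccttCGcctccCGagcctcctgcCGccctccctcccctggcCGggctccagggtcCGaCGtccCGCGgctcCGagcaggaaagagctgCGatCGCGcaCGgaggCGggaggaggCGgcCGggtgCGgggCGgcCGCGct
Grm8: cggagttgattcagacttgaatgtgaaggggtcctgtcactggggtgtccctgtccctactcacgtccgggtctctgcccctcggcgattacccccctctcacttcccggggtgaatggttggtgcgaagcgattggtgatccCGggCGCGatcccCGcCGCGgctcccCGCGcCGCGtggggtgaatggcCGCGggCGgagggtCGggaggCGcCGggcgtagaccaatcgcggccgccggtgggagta
Gabra2: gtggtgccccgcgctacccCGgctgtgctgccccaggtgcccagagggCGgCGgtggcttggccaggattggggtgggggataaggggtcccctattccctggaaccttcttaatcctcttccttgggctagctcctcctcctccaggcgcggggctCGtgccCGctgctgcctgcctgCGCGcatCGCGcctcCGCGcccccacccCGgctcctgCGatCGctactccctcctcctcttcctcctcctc
Grm2: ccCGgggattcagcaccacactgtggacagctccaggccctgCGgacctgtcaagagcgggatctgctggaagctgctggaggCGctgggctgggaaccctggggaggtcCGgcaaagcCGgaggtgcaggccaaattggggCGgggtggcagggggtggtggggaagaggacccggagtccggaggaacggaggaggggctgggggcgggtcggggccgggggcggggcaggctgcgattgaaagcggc
Gabbr1: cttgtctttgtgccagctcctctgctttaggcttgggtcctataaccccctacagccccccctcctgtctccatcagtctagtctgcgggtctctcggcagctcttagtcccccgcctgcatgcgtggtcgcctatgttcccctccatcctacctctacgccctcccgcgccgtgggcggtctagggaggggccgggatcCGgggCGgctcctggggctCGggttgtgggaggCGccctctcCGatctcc
Gabrg1: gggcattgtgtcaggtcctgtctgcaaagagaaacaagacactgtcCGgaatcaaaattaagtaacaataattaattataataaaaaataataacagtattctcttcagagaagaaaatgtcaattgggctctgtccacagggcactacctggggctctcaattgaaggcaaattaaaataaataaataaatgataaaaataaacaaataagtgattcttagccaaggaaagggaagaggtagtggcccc

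The Gabbr2 window (chr4:46991715-46991964, minus strand) had 25 of its 37 CG pairs measured, and its mean level over the 20 libraries was 0.442%. In the Grm8 window (chr6:28135147-28135396, minus strand) 16 of 29 pairs were measured, with a mean of 0.262%. The Gabra2 window (chr5:71095850-71096099, minus strand) had 14 of 18 pairs measured and a mean of 1.24%. Grm2 (chr9:106656110-106656359, minus strand) had 6 of 16 pairs measured and a mean of 0.795%, and Gabbr1 (chr17:37045716-37045965, plus strand) had 5 of 16 and a mean of 0.107%. The highest library in any of these 5 windows was at 2.84%, in Gabra2. The single CG pair of the Gabrg1 window (chr5:70842618-70842867, minus strand) had a mean of 27.8% and ranged from 13.7% to 38.4% over the libraries. Here and below, a CpG is a listed cytosine position, and both strands of a pair count as 2 where both were listed.

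Most receptor genes were nearly unmethylated at their ends and methylated in their bodies. Of the 3479 receptor CpGs, 55.6% had a mean level under 10%, 22.4% lay between 10% and 80%, and 22.0% lay above 80%. The shares over all measured CpGs were 58.3%, 19.0% and 22.7%. Near gene ends 88.2% of the 1211 distinct receptor CpGs were under 10%, and in gene bodies 38.2% were. Averaged over the genes with at least 3 CpGs, the level was 10.9% near ends (28 genes, median 1.997%) and 54.7% in bodies (33 genes, median 57.8%). The ends of 20 of the 28 genes (71.4%) were under 5%, beside 68.6% of 14060 protein-coding genes. Ends of those 14060 genes had a mean of 12.4% and a median of 1.01%. Bodies of all 12104 genes with enough CpGs had a mean of 59.0% and a median of 69.7%. For the 27 genes with a RefSeq start, 21 had CpGs within 1 kb of it, with a median of 1.24%, and 18 of the 21 were under 5%.

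**Figure D1:**
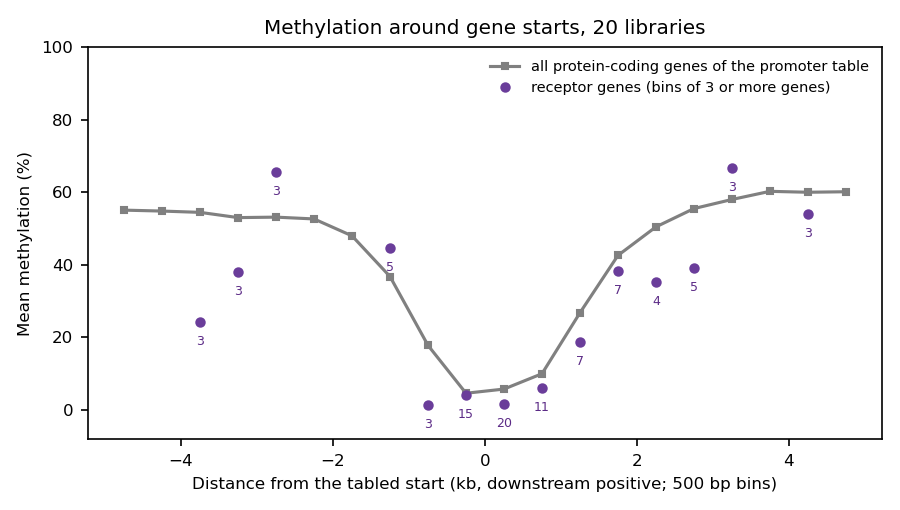
Mean methylation (%, all 20 libraries) in 500 bp bins by distance from the RefSeq start (kb, downstream positive), for all protein-coding genes of the promoter table (grey squares) and for the receptor genes (purple circles, bins with 3 or more genes, number of genes below each circle). In the first 500 bp after the start the 20 receptor genes with CpGs averaged 1.70% and all genes 5.78%, and both sets are higher beyond 1 kb on either side. The medians in that bin had the opposite order, 1.05% for the receptor genes and 0.192% for all genes.

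Among the AMPA receptor genes, Gria1 (chr11:57011571-57330244) was at 23.2% near its ends and 80.8% in its body. Gria4 was at 1.25% near its ends and 74.6% over 7 body CpGs. Gria2 (chr3:80681450-80804227), whose subunit keeps calcium out of AMPA receptors, had all of its 58 CpGs over 1 kb from the annotated ends, yet they were at 1.97%, with libraries from 1.24% to 3.09%. Of those 58 CpGs, 23 lie within 1 kb of a RefSeq start inside the annotated gene and were at 0.915%. The others lie farther from that start. A CpG counted as body by the annotated ends can therefore lie at a RefSeq start, as those 23 do.

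Of the kainate receptor genes, Grik3 was at 1.46% near its ends and 54.3% in its body, and Grik5 at 4.19% and 57.0%. Grik4 was higher near its ends, at 21.7% over 14 CpGs, and was at 56.2% over 277 body CpGs, but its 15 CpGs within 1 kb of the RefSeq start were at 1.80%. Grik1 had only 14 body CpGs, at 77.3%. Grik2 had 79, at 13.5%, of which the 31 near a RefSeq start were at 0.759%.

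The NMDA receptor genes had low ends with 1 exception. Near their ends Grin1, the subunit that every NMDA receptor needs, was at 5.27%, Grin2a at 2.29%, Grin2b at 2.64%, Grin2c at 3.56%, Grin2d at 3.34% and Grin3a at 1.43%. Grin3b (chr10:79970397-79977190), a glycine-binding subunit gene, was at 62.5% over 123 CpGs near its ends, with every library between 60.5% and 64.6%, and at 5.92% over the 41 CpGs within 1 kb of its RefSeq start. Body levels of the family ran from 12.9% in Grin2c and 15.6% in Grin2d, through 32.3% in Grin1, 34.3% in Grin2a and 45.0% in Grin3a, to 58.5% in Grin2b and 59.7% in Grin3b. The delta-type gene Grid1 was at 1.70% near its ends and 57.8% in its body.

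Metabotropic glutamate receptor genes had the lowest ends of the glutamate families. Near their ends Grm2 was at 0.817%, Grm4 at 1.48%, Grm6 at 0.596%, Grm7 at 2.73% and Grm8 at 0.333%, and Grm3 and Grm5 had no CpG there. Their bodies spread from 40.6% in Grm4, 43.5% in Grm5 and 49.4% in Grm8 to 72.0% in Grm2, 79.4% in Grm7, 84.6% in Grm3 and 85.8% in Grm6. Grm5 couples to phospholipase C, and the other 6 act mainly by lowering cyclic AMP. Grm3 had only 6 CpGs and Grm2 only 5 in the body.

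GABA-A receptor genes held both extremes. The ends of Gabra2 (1.24%), Gabra4 and Gabrb1 (1.09% over the CpGs they share) and Gabra5 (0.945%) were nearly unmethylated, and those of Gabrg3 were at 5.96% and of Gabrg1 at 12.5%. Gabrd (chr4:155384979-155398098), the δ subunit of receptors outside synapses, was at 88.5% over 13 CpGs near its ends, and Gabrr2 (chr4:33057712-33095865), a ρ subunit best known from the retina, at 52.4% over 8 CpGs. No Gabrr2 CpG lay within 1 kb of its RefSeq start, and no RefSeq start was found for Gabrd. These levels therefore do not describe a RefSeq start. In the body, Gabrb2 was at 92.0% over 6 CpGs and Gabra4 at 90.1% over 4, the highest of the 33 bodies. Gabrr1 was at 84.2%, Gabrg3 at 83.5%, Gabrr2 at 78.8%, Gabrd at 76.7% and Gabrb1 at 31.96%. Gabra5, at 3.00% over 130 body CpGs, had 122 CpGs within 1 kb of a RefSeq start. Of the GABA-B genes, Gabbr1, which binds GABA, was at 0.151% near its ends and 14.9% in its body, and Gabbr2, which couples the pair to G proteins, at 1.22% and 62.3%.

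**Figure D2:**
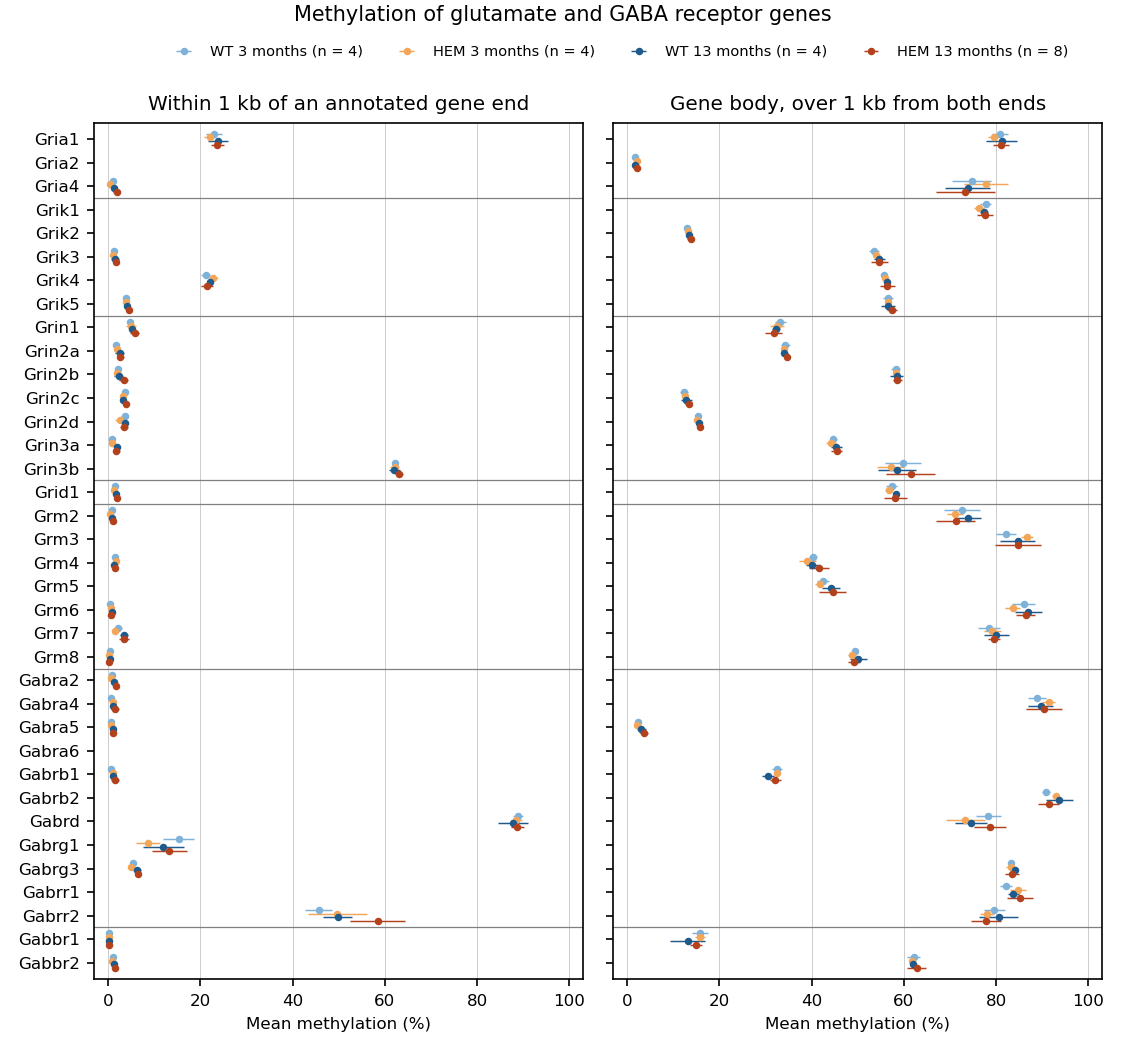
Mean methylation (%) of each receptor gene near its annotated ends (left) and in its body (right), as mean ± SD of the libraries of a group, with rows ordered by receptor class and grey lines between classes. The 4 groups lie close together in nearly every row, and the ends of Gabrd, Grin3b and Gabrr2 stand far to the right of the others; rows without points had fewer than 3 CpGs.

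The order of the class means was alike in all 4 groups, but near ends it rested on a few genes. Over the 20 libraries the median gene was at 3.60% in GABA-A, where Gabrd and Gabrr2 stood high, at 3.34% in NMDA, where Grin3b did, at 4.19% in kainate and at 12.2% over the 2 AMPA genes. As means near ends the GABA-A genes averaged 19.8% ± 0.624 (SD, n = 4) in WT and 19.4% ± 0.518 (SD, n = 4) in HEM at 3 months, and 20.01% ± 0.682 (SD, n = 4) in WT and 21.6% ± 1.29 (SD, n = 8) in HEM at 13 months. AMPA genes followed at 11.2% to 12.8% and NMDA genes at 11.1% to 11.99% over the 4 group means, and these 2 classes were within their spreads of each other. Kainate genes averaged 8.76% to 9.26%. Metabotropic, delta-type and GABA-B genes were all under 2% in every group mean. In bodies the GABA-A genes were again highest, at 67.2% to 67.8%, ahead of the metabotropic genes at 64.3% to 65.7%. NMDA genes were lowest at 36.3% to 37.3%, just under the GABA-B genes at 37.6% to 39.0%. This order too depended on single genes. The median body was at 81.1% in GABA-A, 74.6% in AMPA, where the mean was 52.4%, 72.0% in metabotropic and 34.3% in NMDA genes. Body CpGs also include some near RefSeq starts inside a gene, as in Gria2.

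Facts of the whole data set bear on all comparisons. The mean over all shared CpGs was 30.6% ± 0.431 in WT and 30.5% ± 0.151 in HEM at 3 months and 31.0% ± 0.343 and 31.0% ± 0.871 at 13 months (SD, n as above). Methylation shows no expression, so the microglia enrichment was not checked by it. The microglia marker gene regions (10 of 13 listed genes with 3 CpGs) averaged 54.6% ± 2.53 in WT and 55.6% ± 3.96 in HEM at 3 months, and 53.4% ± 4.96 in WT and 50.6% ± 4.95 in HEM at 13 months. Neuron marker regions (9 of 9) averaged 16.3% ± 0.407, 15.6% ± 0.320, 16.3% ± 0.701 and 16.9% ± 0.849 in the same order. The part that the mix of cells has in the differences below was not tested. Each gene region, end set and body was tested over the genome with limma on log2 methylation ratios, and a call needed an adjusted p under 0.05 and 5 points, or 10 points for a CpG. Of the 35 regions 32 had a mean between 5% and 95% and were tested, and those of Gria2, Gabra2 and Gabra5 were below 5%.

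HEM and WT mice were compared first at 13 months, which asked whether receptor genes differ under α-synuclein at the older age. No receptor gene region was called among 32, as in the genome (0% of 12353), and none had an unadjusted p under 0.05, a share that was 3.76% over all regions. The largest differences were in GABA-A genes. Gabrd was at 82.0% ± 3.31 (SD, n = 4) in WT and 84.4% ± 1.80 (SD, n = 8) in HEM, 2.39 points higher. Gabrr1 was 1.49 points higher in HEM and Gabrb1 1.33 points higher (limma, unadjusted p = 0.0519). On the other side the difference was -2.33 points in Gabrb2, -0.577 points in Grm2 and -0.542 points in Grm8. In all, 24 of the 32 regions had the higher mean in HEM, with a median difference of 0.277 points, beside 50.6% of all regions and a median of 0.00853 points. That count was 17 to 30 when single libraries were left out or the replicate number was used as a block, and 19 regions had a positive coefficient with the microglia marker level as a covariate. Near ends, 0 of 8 receptor genes were called (0% of 4416) and 1 had an unadjusted p under 0.05 (background 5.21%), and in bodies 0 of 31 were called (0% of 10918) and 0 had such a p (background 4.14%).

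The gene with that p was Gabrr2 near its ends. The 4 WT libraries at 13 months were at 46.6%, 48.1%, 50.3% and 54.0%, and the 8 HEM libraries ran from 49.7% through a median of 57.6% to 67.5%. The groups overlapped, with 2 of the 8 HEM libraries inside the WT range. The means were 49.7% ± 3.22 and 58.4% ± 5.94, a difference of 8.69 points (limma, unadjusted p = 0.0170, adjusted p = 0.915). This difference rested mostly on 3 of its 8 CpGs (chr4:33058094, chr4:33058114 and chr4:33058130), which were at 20.9% or more in the same 10 libraries and at 7.59% or less in the other 10. Without those 3 the means were 70.2% ± 6.55 in WT and 73.5% ± 9.004 in HEM, a difference of 3.33 points (limma, unadjusted p = 0.448, adjusted p = 0.979). Among the 20 genes whose ends were under 5%, which were too low to be tested, 14 were higher in HEM, beside 51.2% of 9644 such genes. Gabra4 and Gabrb1, which share the same 8 end CpGs, count as 2 of these 20.

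At 3 months the same comparison again gave no call among 32 receptor regions (0% of 12302), and 4 of them had an unadjusted p under 0.05 (background 3.75%). All 4 had few CpGs. Gabrg1 (chr5:70751047-70842617), a γ subunit gene with 4 CpGs upstream of its start, was at 11.54%, 13.7%, 16.7% and 19.3% in the WT libraries and at 6.24%, 6.54%, 10.2% and 11.49% in the HEM libraries. The groups narrowly did not overlap, and the difference was -6.70 points (unadjusted p = 0.00912). At the CG pair shown in capitals in the Gabrg1 sequence the means were 32.4% ± 2.84 and 21.4% ± 6.74 (SD, n = 4 each). At the other 3 CpGs, which enter the same region mean, the HEM mean was lower too. At chr5:70842949 (5.79% in WT and 2.58% in HEM) and chr5:70842993 (4.37% and 1.78%), however, the groups overlapped. By 13 months the Gabrg1 groups overlapped widely, at 12.0% ± 4.47 in WT and 13.2% ± 3.82 in HEM.

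Grm3, a metabotropic receptor of neurons and glia, was at 79.96%, 81.0%, 82.9% and 84.89% in WT and at 84.92%, 86.7%, 87.0% and 88.0% in HEM at 3 months. The groups narrowly did not overlap, and the difference was 4.48 points (unadjusted p = 0.00443). Gabrb2 (chr11:42419515-42632591), a β subunit of synaptic GABA-A receptors, had 6 CpGs within a short stretch of its body, at 89.4%, 91.1%, 91.2% and 91.5% in WT and at 92.3%, 92.6%, 92.9% and 94.0% in HEM. Its groups did not overlap, although the difference was only 2.15 points (unadjusted p = 0.00473). The largest difference of a single Gabrb2 CpG was at chr11:42552442, with means of 72.6% in WT and 80.1% in HEM. At chr11:42552486 the HEM mean was the lower one (96.1% in WT and 93.5% in HEM). Gabrr1 was at 82.1% ± 1.30 in WT and 84.8% ± 1.73 in HEM, 2.69 points higher (unadjusted p = 0.0296), with overlapping groups. For all 4 genes the adjusted p was 0.998. These fits used CpGs listed at both ages. Gabrb2 had 16 CpGs listed at 3 months, of which 6 were used, and Gabrr1 had 17, of which 15 were used. With all CpGs listed at 3 months, 2 of 32 receptor regions had an unadjusted p under 0.05, beside 3.9% of all regions. Of the other genes, the difference was -2.38 points in Gabrd and -1.498 points in Grik1. Over all 32 regions 14 were higher in HEM with a median of -0.209 points, beside 45.9% and -0.0530 points for all regions. Near ends 0 of 7 were called (0% of 4354) and only Gabrg1 had an unadjusted p under 0.05 (background 4.36%). In bodies 0 of 31 were called (0% of 10924), and Gabrr1, Grm3 and Gabrb2 had such a p (background 4.11%). Among the 20 genes with ends under 5%, which were not tested, 7 were higher in HEM, beside 41.1% of 9644 such genes. The median differences were -0.110 and -0.0236 points.

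**Figure D3:**
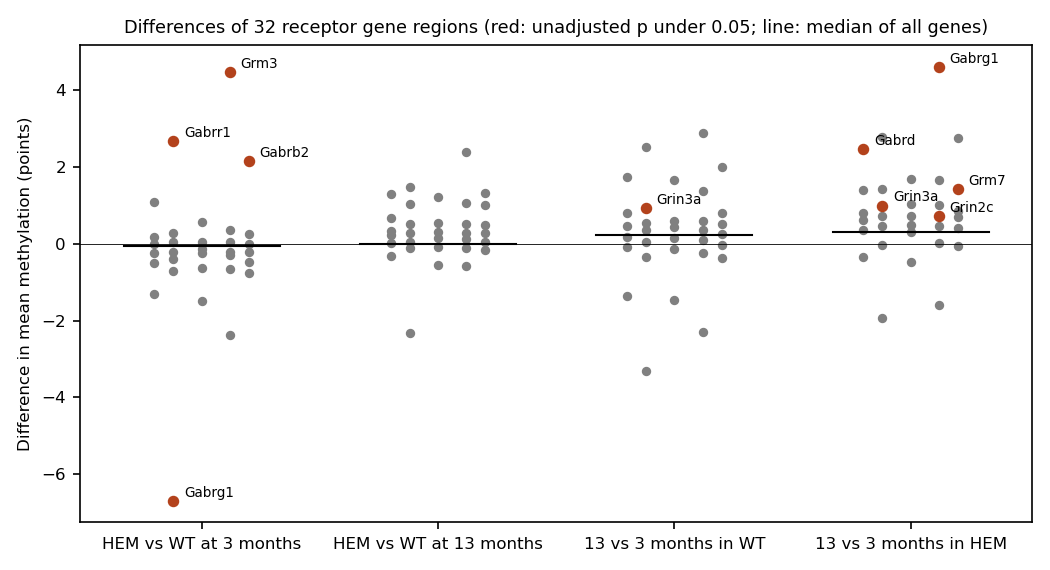
Differences in mean methylation (points) of the 32 tested receptor gene regions in each of 4 comparisons, 1 point per gene spread sideways for visibility, with the median of all tested gene regions as a black line and genes with an unadjusted p under 0.05 in red with their names. At most 2 genes of a comparison lie more than 3 points from 0, and the named genes of the HEM and WT comparison at 3 months are not those named between ages except Gabrg1.

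Age was compared within each genotype. The libraries of the 2 ages were deposited as separate sets, so age and set cannot be told apart. In WT mice no receptor region was called (0 of 32, and 0% of 12326), and 1 had an unadjusted p under 0.05 (background 4.63%). That gene was Grin3a (chr4:49661611-49846023), an NMDA subunit that lowers calcium flow, at 11.4%, 12.0%, 12.2% and 12.3% at 3 months and at 12.4%, 12.6%, 12.9% and 13.7% at 13 months. The groups did not overlap and differed by 0.939 points (unadjusted p = 0.0373, adjusted p = 0.944). Larger differences with more spread were 2.89 points in Gabrb2, 2.52 in Grm3 and 2.02 in Gabrr2, all higher at 13 months, and -3.32 points in Gabrg1, -2.30 in Gabrd and -1.48 in Gabbr1. Of the 32 regions 22 were higher at 13 months, beside 63.9% of all regions. Near ends 0 of 7 were called (0% of 4379) and 0 had an unadjusted p under 0.05 (background 5.09%), and in bodies 0 of 31 were called (0% of 10918) and 0 had such a p (background 4.87%).

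In HEM mice 5 of 32 receptor regions had an unadjusted p under 0.05 between ages, close to the background of 13.6%, and none was called (0% of 12335). All 5 were higher at 13 months. Grin3a was at 11.3%, 11.8%, 12.0% and 12.2% at 3 months and ran from 11.9% through a median of 12.9% to 13.7% at 13 months, a difference of 0.998 points (unadjusted p = 0.0233, adjusted p = 0.325). This resembled the 0.939 points of the WT mice, although here the groups overlapped. Gabrd was 2.48 points higher, Gabrg1 4.61 points, Grm7 1.43 points and Grin2c 0.715 points, with unadjusted p values of 0.0289 to 0.0464. Grm5 and Gabrr2 were 2.79 and 2.76 points higher, and the differences of Grm3, Gabrb2 and Gabbr1 were -1.93, -1.59 and -0.470 points. The count of 5 was 14 without replicate 8 of the 13-month HEM mice, where the share over all regions was 21.5%, and 1 without replicate 7 of the 3-month HEM mice, where it was 13.7%. It was 0 with the microglia marker level as a covariate, where the share over all regions was 5.61%. Between these groups 3 of 10 microglia marker regions and 1 of 6 other leukocyte marker regions had an unadjusted p under 0.05, all lower at 13 months. So did 2 of 7 neuron, 2 of 5 astrocyte and 2 of 8 vessel marker regions, all higher, and 0 of 6 of the oligodendrocyte lineage. Of the 32 regions 26 were higher at 13 months (median 0.715 points), beside 66.0% of all regions (median 0.304 points).

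The ends of Gabrg3, a γ subunit gene with 61 CpGs there, gave the smallest adjusted p among the receptor gene regions, ends and bodies tested. Ends with a mean under 5% were not tested. They were at 4.45%, 4.80%, 5.19% and 5.34% in the HEM mice at 3 months, and ran from 5.74% through a median of 6.55% to 7.64% at 13 months. These groups did not overlap, and the difference was 1.60 points, log2 ratio 0.37 ± 0.07 (SE; unadjusted p = 0.000374, adjusted p = 0.0964), below the 5 points a call needed. The 3-month HEM mean of 4.95% was itself under 5%, so these ends passed the mean filter only through the 13-month libraries. In WT mice the Gabrg3 ends were at 5.46% ± 0.353 and 6.29% ± 0.867 at the 2 ages. Gabrr2 near its ends was at 49.7% ± 6.38 in HEM at 3 months and 58.4% ± 5.94 at 13 months, 8.76 points higher (unadjusted p = 0.0303). Without the 3 CpGs that switched together between libraries, the Gabrr2 difference was 4.13 points (unadjusted p = 0.344). With Gabrg1 these were 3 of 8 tested ends with an unadjusted p under 0.05 (background 16.3%), and none was called (0% of 4397). In bodies 0 of 31 were called (0% of 10924) and Gabrd, 5.41 points higher, and Grm6, 2.78 points higher, had an unadjusted p under 0.05 (background 12.1%). Among the genes with ends under 5%, 18 of 20 were higher at 13 months in HEM and 15 of 20 in WT, beside 65.7% and 59.7% of all such genes. The median differences of these 20 genes were 0.5498 points in HEM and 0.251 points in WT, beside 0.0409 and 0.0291 points over all such genes. Gabra4 and Gabrb1, with the same 8 end CpGs, again count as 2 genes here.

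**Figure D4:**
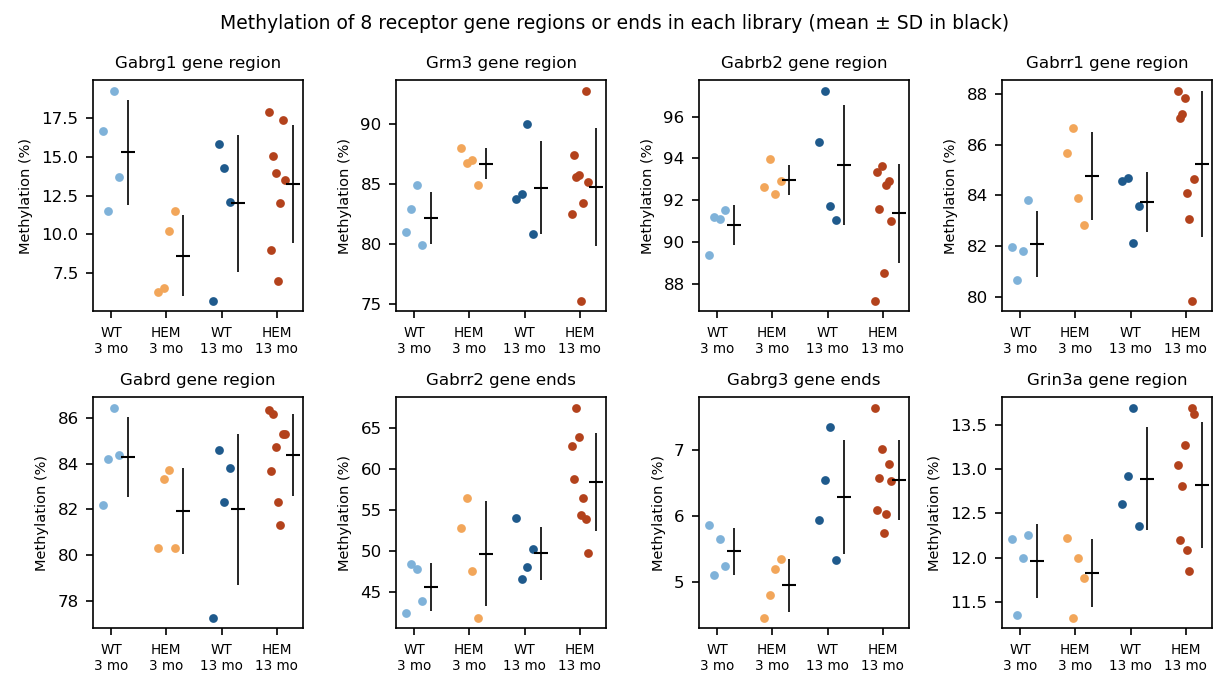
Methylation (%) of 8 receptor gene regions or ends in every library, by group, with the group mean ± SD in black and a vertical axis of its own in each panel that does not start at 0. At 3 months WT and HEM do not overlap in Gabrb2, Gabrg1 and Grm3, the last 2 by a narrow margin, and the ages do not overlap in the HEM libraries of the Gabrg3 ends.

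Whether the genotype difference itself differed with age was tested by the interaction term. No receptor region was called (0 of 32, and 0% of 12338), and 3 had an unadjusted p under 0.05 (background 4.97%). The HEM minus WT difference of Gabrg1 was -6.70 points at 3 months and 1.23 points at 13 months. That of Gabrd was -2.38 and 2.39 points, and that of Gabrb2 was 2.15 and -2.33 points. Their adjusted p was 0.910. Grm3 had a difference of 4.48 points at 3 months and of 0.0373 points at 13 months (unadjusted p = 0.264), and Gabrr1 of 2.69 and 1.49 points. Grm4 had -0.753 and 1.07 points.

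Single CpGs of the receptor genes gave no call in any comparison. At 13 months 0 of 1605 were called between genotypes, beside 0.00157% of all CpGs tested, and 94 had an unadjusted p under 0.05 (background 5.83%). At 3 months 0 of 1547 were called (0% of all), and 68 had such a p (background 4.55%). Between ages 0 of 1559 were called in WT (0.0183% of all) and 63 had such a p (background 4.79%), and 0 of 1594 were called in HEM (0.0305% of all) and 159 had such a p (background 10.4%). For the interaction 0 of 1581 were called (0.000224% of all) and 97 had such a p (background 6.28%). All 5 shares of receptor CpGs with a small p lay near their backgrounds.

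The receptor CpG of smallest p between genotypes at 13 months lay in the body of Grin2c (chr11:115258290), an NMDA subunit best known from the cerebellum. It was at 0% in 3 WT libraries and 7.69% in the fourth, and ran from 6.90% through a median of 10.9% to 13.3% in HEM (8.56 points, adjusted p = 0.317). Only that 1 WT library, replicate 1, lay among the HEM values, and without it the CpG was called (adjusted p = 0.00412). The 3 WT libraries then left were all at 0%. Over fits without single libraries or with the replicate block, 0 to 44 CpGs of the genome were called. At 3 months, however, this Grin2c CpG was at 0%, 7.14%, 20.3% and 21.1% in HEM. In WT it was at 2.04%, 5.56%, 9.68% and 14.7% at that age, with full overlap. The next CpG lay in Grik4 (chr9:42521046), at 0%, 0%, 0% and 1.72% in WT and from 1.43% through 6.17% to 14.3% in HEM (adjusted p = 0.369). At both CpGs the WT mean (1.92% and 0.431%) was under 5%, so they passed the mean filter only through the HEM libraries. Their p values and the call without replicate 1 depend on that selection and are given as description only. The Grik4 CpG was also the smallest p of the interaction (10.7 points, adjusted p = 0.633), since the WT mean was 8.59% and the HEM mean 4.91% at 3 months. A second interaction CpG, in Grin2c (chr11:115265704), had group means of 32.8% and 13.8% in WT and HEM at 3 months and 6.71% and 24.8% at 13 months (adjusted p = 0.688).

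The other CpGs of smallest p were single positions as well. At 3 months a Gabrg3 CpG 258 bp from the gene end (chr7:57386957) was at 0%, 0%, 0% and 2.08% in WT and at 4.44%, 9.38%, 13.0% and 13.8% in HEM (adjusted p = 0.817), and a Grik4 CpG (chr9:42521078) at 12.3% ± 1.88 in WT and 4.34% ± 1.63 in HEM (SD, n = 4 each, adjusted p = 0.986). Neither pair of groups overlapped at 3 months. At 13 months the Gabrg3 CpG was at 6.67% in WT and 7.06% in HEM, so that the 3-month WT group was the one apart. Between ages in WT, a Grin2b CpG (chr6:136171898) was at 1.23% ± 1.62 and 12.8% ± 8.69 and a Grik4 CpG (chr9:42667475) at 88.0% ± 3.63 and 96.4% ± 1.81, with adjusted p values of 0.925 and 0.975. Between ages in HEM, a Grik4 CpG (chr9:42862444) was at 98.3% ± 3.31 and 90.8% ± 3.37, and a Grm4 CpG (chr17:27502459) at 1.02% ± 1.20 and 7.84% ± 4.64, with adjusted p values of 0.168 and 0.198. At every CpG of this paragraph 1 of the 2 compared group means lay outside 5% to 95%. Each therefore passed the mean filter only through its other group, and its p value is given as description only. Of these 9 distinct CpGs, 4 lay in Grik4, which held 291 CpGs.

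A few receptor CpGs varied widely between libraries. Over the 20 libraries 6 receptor CpGs (0.173%) had an SD over 20 points, beside 0.288% of all CpGs. They lay in Grin1 (chr2:25292526), Gabrr2 (chr4:33058094), Gabbr2 (chr4:46975675), Gria1 (chr11:57265837) and at a pair of positions in Grin2b (chr6:135725134 and chr6:135743488). To describe them, the 20 values of a CpG were cut into bands at their 2 largest gaps. The rule itself therefore sets the bands apart. At the first Grin2b position 1 library was at 0%, 6 were between 46.0% and 56.3% and 13 between 88.5% and 97.2%. At the second, 18354 bp away, 1 was at 0%, 6 between 16.97% and 37.3% and 13 between 61.5% and 82.3%, and all 20 libraries fell in the same band at both. The middle bands held libraries of all 4 groups. The Gria1 position had 2 HEM libraries of 3 months at 0% and 1.19%, 10 libraries between 27.3% and 58.5% and 8 between 74.3% and 83.8%.

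Neighbours did not share this pattern at the Grin2b and Gria1 positions. Each had 1 other CpG within 100 bp, and the SDs of those 3 neighbours were 4.17, 3.55 and 5.27 points. The Gabrr2 position had 6 neighbours with SDs up to 19.0 points. It was at 0% in all 4 WT libraries of 3 months, at 0%, 0%, 38.8% and 52.8% in HEM of 3 months, at 0%, 0%, 34.7% and 47.5% in WT of 13 months, and from 0% through a median of 43.5% to 80.4% in HEM of 13 months. The Grin1 position ran from 0% to 70.0% and the Gabbr2 position from 17.1% to 85.7%, and in both all 4 groups overlapped.

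**Figure D5:**
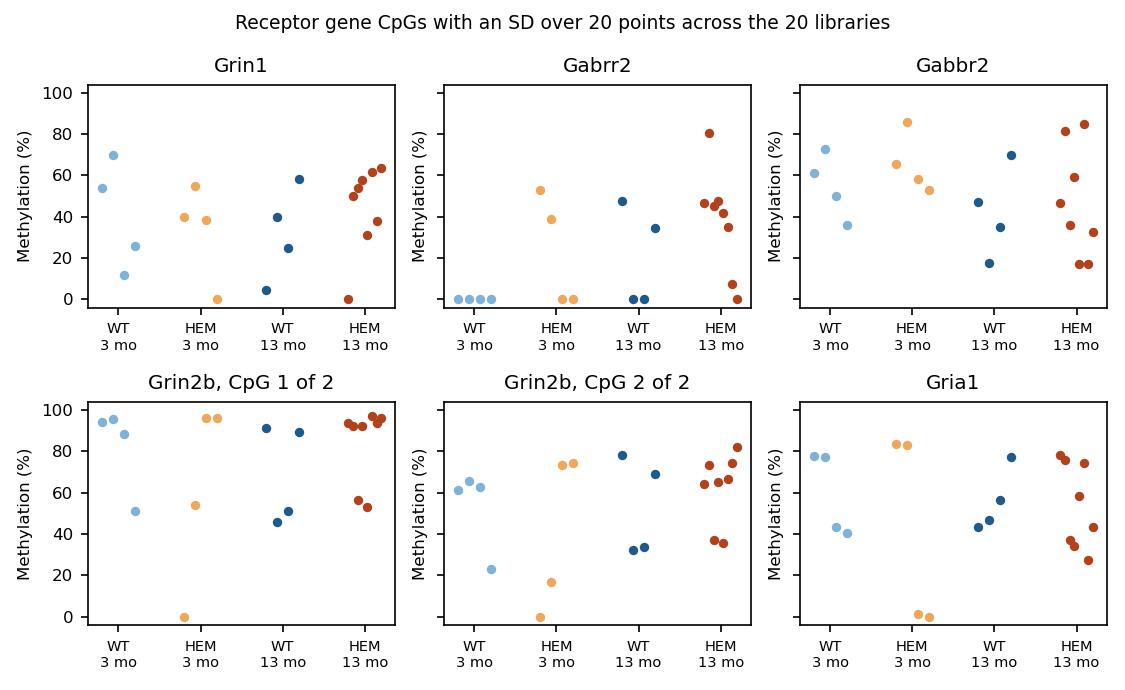
Methylation (%) in every library at the 6 receptor CpGs with an SD over 20 points, by group, each panel from 0% to 100%. In the Grin2b and Gria1 panels high and low values cut across the groups, and the 4 WT libraries of 3 months are all at 0% in the Gabrr2 panel.

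Receptor genes on chromosomes 9 and 17, where earlier results of these data had pointed to CpGs that vary by library, were looked at library by library. Grm4 and Gabbr1 lie on chromosome 17. The Grm4 region ran from 25.8% to 31.2% over the 20 libraries, and its most variable CpG (chr17:27436097) from 10.3% to 61.7%, with group means of 25.7% in WT and 24.4% in HEM at 3 months and 40.6% and 46.9% at 13 months. Gabbr1 ran from 4.68% in replicate 1 of the 13-month WT mice to 10.04%, and that lowest library also held the lowest value, 8.70%, at chr17:37051187, where the highest library was at 72.5%. On chromosome 9, Gria4 ran from 18.9% to 24.8%, Grik4 from 51.7% to 56.8% and Grm2 from 18.7% to 22.6%, and in all 3 the lowest library was replicate 8 of the 13-month HEM mice. That library was also the lowest of the 20 in the mean over all receptor regions, at 34.98% where the next was at 35.9%, and in every class except GABA-B, so its low level was not particular to chromosome 9. Near ends, however, it was the lowest in no class. It was also the lowest in the vessel marker regions, at 45.1%, but not in those of microglia, neurons or astrocytes. Its low level was therefore not particular to receptor genes. It was lowest too at the most variable Grik4 CpG (chr9:42778593), at 30.2% where the highest was 93.9%. None of these 5 genes had a CpG with an SD over 20 points.

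Genes that work with the receptors were described from lists taken up with earlier results known. Of 32 tested genes for auxiliary and scaffold proteins, which place receptors at the synapse, none was called in any comparison. Those with an unadjusted p under 0.05 were 1 and 3 between genotypes at 13 and 3 months (backgrounds 3.76% and 3.75%), 0 in WT and 5 in HEM between ages (4.63% and 13.6%), and 2 in the interaction (4.97%). The smallest p values belonged to Shank1 at 13 months (14.7% in WT and 12.9% in HEM), Cacng7 at 3 months (12.9% and 14.5%), Neto1 between ages in HEM (13.5% at 3 months and 14.8% at 13 months, adjusted p = 0.230), and Pick1 in the interaction. Of 14 tested genes for making and carrying glutamate and GABA, none was called and none had an unadjusted p under 0.05 in any of the 5 tests. There Glul, glutamine synthetase, was at 9.52% in WT and 8.76% in HEM at 13 months, and Gad2, which makes GABA, at 12.1% and 13.7% at 3 and 13 months in HEM. Of 9 further tested subunit genes of the same families none was called, with 2, 1, 0, 2 and 1 at an unadjusted p under 0.05 in the order genotype at 13 and 3 months, age in WT and HEM, and interaction, against the same backgrounds. They were led by Gabre at 13 months (55.7% in WT and 59.0% in HEM), Gria3 at 3 months and between ages in HEM, and Gabra3 between ages in WT and in the interaction.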

How the data were processed

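DNA methylation was measured by reduced representation bisulfite sequencing in 20 libraries. The authors deposited, for each library, the percent methylation of each listed cytosine of a CpG, with no read counts. The mm10 build and the tools Bowtie2 and methylKit are named per the submitters' processing notes, and versions are not given in the sources used here. The deposited tables that join the libraries of an age were not used, and 1 of their columns equalled no library's file where compared. Positions on chromosomes 1 to 19, X and Y listed at both ages were kept.

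Percentages were averaged over the CpGs of each protein-coding gene with 1000 bp either side, of its ends and of its body, with at least 3 CpGs. Gene positions came from RefSeq annotation of the same assembly. The table used has no exons, so exons, introns and UTRs were not used here. limma 3.58.1 in R 4.3.3 tested log2((percent + 1) / (100 - percent + 1)), with moderated variances, over all features with a mean of 5% to 95%, with Benjamini-Hochberg adjustment. The method was tested on simulated data. The percent values carry no depth, so precision rests on the spread between libraries, which were taken as separate mice.

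Groups came from the labels. The members and lists were chosen with earlier results of these data known. Named were all 36 members, those called or with an unadjusted p under 0.05, the 3 of largest difference in each direction, the 2 CpGs of smallest p in each comparison, members on chromosomes 9 and 17, and the gene of smallest p of each other receptor-related list. CpGs with an SD over 20 points were named after their values were seen. Results were recomputed on the percent scale, with an offset of 5, without the mean filter, with all CpGs of an age, at least 5 CpGs, medians, no flanks, merged strands, unmoderated variances, without chromosomes 9 and 17, with a microglia marker covariate, with a replicate block, and without each library. Leaving out the most variable CpG of Gabrr2, or its CpGs at 0 in some library, and using RefSeq starts were chosen after seeing the data. The gene of smallest p in 1 of these lists is not reported here.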

Additional observations from a re-analysis of the deposited data

Results flagged for a closer look

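In groups of 4 to 10 libraries, a gene or class value was singled out where 1 library stood far from the others of its group, by Dixon's criterion at 95%. This marked 8 of 152 groups (5.26%), and chance marks about 1 in 20.

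In the Grm4 region, replicate 1 of the 13-month WT mice was at 26.3%, where the other 3 were at 28.2% to 28.3%. In the Grm6 body, replicate 3 of the 3-month WT mice was at 82.1%, where the others were at 87.0% to 87.7%. For the mean of the NMDA gene ends, replicate 6 of the 13-month WT mice was at 12.6%, above 11.1% to 11.3%. For the NMDA gene bodies, replicate 3 of the 3-month HEM mice was at 37.4%, above 35.7% to 35.996%, and the same library was at 1.03% for the metabotropic gene ends, above 0.845% to 0.869%. In the body of Grid1, the delta-type gene, replicate 4 of the 3-month WT mice was at 59.2%, above 56.5% to 56.9%, and that library was also at 20.7% for the GABA-A gene ends, above 19.4% to 19.5%. For the GABA-A gene bodies, replicate 2 of the 13-month WT mice was at 69.0%, above 66.9% to 67.1%.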

How the results depend on the processing

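The 14 counts of receptor regions, gene parts and CpGs called stayed at 0 in 282 recomputations and not in 1. The exception was receptor CpGs between genotypes at 13 months, where 1 was called without replicate 1 of the WT mice and the range over libraries left out was 0 to 1. That CpG is in Grin2c, and fewer WT libraries were in the fit, all of them at 0% there. It passed the mean filter only through the HEM libraries. In all, 6 single values reversed, and the cause was not tested. With the median over CpGs in place of the mean, Gabrr2 and Grm3 between ages in WT came to -4.93 and -0.544 points, and Gabrr1 in the interaction to 1.54. With the replicate number as a block at 13 months, Grm2 and Grm8 came to 0.434 and 0.305 points. Over libraries left out, Grm8 ranged from -0.837 to 0.00953 points, the last without replicate 2 of the 13-month WT mice. The block, fitted on the shared numbers only, gave 0 receptor regions called in each genotype comparison and between ages in HEM, but with 2 pairs at 3 months and 3 pairs in the others it says little about stability. Same-numbered libraries did not deviate together throughout (correlations from -0.227 to 0.328), so the numbers were not taken as pairs. The block could not be fitted between ages in WT, where 1 number is shared, and was not run for the interaction. Without its 3 CpGs at 0 in some library, the Gabrr2 end difference of 8.69 points at 13 months was 3.33 points, and without only the most variable one 7.42 points. Class levels moved by more than the spread between libraries in 21 recomputations, mostly with medians, no flanks or merged strands. The files give no depth, so a difference of a few points at a single CpG cannot be told from counting error, and counts of 0 do not show that groups are alike.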
